A study of Mus musculus with 19 samples.

Results

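The livers described here came from 5 male C57BL/6 mice of the diet experiment, 3 of them fed a diet with 2% carbonyl iron for 6 weeks and 2 fed the standard diet. Their arrays are 5 of the 19 arrays of the series and were chosen by sample title, all of the liver arrays of that experiment being included. The mice were 16 to 18 weeks old by their labels and carried no targeted allele. Each array held RNA of 1 liver on an Illumina Sentrix Mouse-6 BeadChip, which reports a bead signal and a detection p for each probe. Values are log2 signals after quantile normalization, so that a difference of 1 stands for a 2-fold change in signal. For comparison, 3 *Hfe* knock-out livers (labels give 10 to 12 weeks of age) and 2 wild-type livers (13 to 14 weeks) of the same series are used at the end. The study's methods instead give about 10 weeks for both of these groups.

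Iron that enters the circulation is held in check by hepcidin, a peptide made by hepatocytes that binds the iron exporter ferroportin and has it degraded. In an iron-loaded liver, bone morphogenetic protein (BMP) ligands act through receptors and SMAD proteins on the hepcidin gene and on genes such as *Id1*, while inflammatory cytokines act on it through STAT3. Cellular iron itself sets the stability of some transcripts, that of transferrin receptor 1 among them, and the translation of ferritin, through iron regulatory proteins. Mice carry a second hepcidin gene, *Hamp2*, whose peptide is not known to lower circulating iron.

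The proximal promoters of both mouse hepcidin genes are shown because these genes rose by very different amounts. They are the 150 bases before the RefSeq start, read 5′ to 3′ on the minus strand of chromosome 7 in GRCm38.p6, at chr7:30944030-30944179 for *Hamp* and chr7:30924182-30924331 for *Hamp2*. Capitals mark matches to GGCGCC, the core of the known BMP-responsive element of hepcidin, and to TTCNNNGAA, a STAT-type element, searched on both strands.
Hamp: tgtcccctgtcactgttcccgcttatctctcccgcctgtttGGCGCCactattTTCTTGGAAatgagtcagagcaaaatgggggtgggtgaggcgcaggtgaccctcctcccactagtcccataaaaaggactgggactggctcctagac
Hamp2: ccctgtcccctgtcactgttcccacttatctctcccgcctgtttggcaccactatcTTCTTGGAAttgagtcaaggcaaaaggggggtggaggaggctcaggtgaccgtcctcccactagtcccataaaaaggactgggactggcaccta
Aligned end to end, the stretches had 135 identical bases in 153 columns, with 12 mismatches and 6 gaps. The GGCGCC core began 109 bases before the start of *Hamp*, and *Hamp2* differed from it there by G4A (the *Hamp* base, its position from 1 at the 5′ end of the core, then the *Hamp2* base). The STAT-type element was in both, 97 and 94 bases before the start. Over the 250 bases before the start of 27025 genes, GGCGCC was found in 9.54% and TTCNNNGAA in 7.18%. In the same window, GGCGCC was also found for *Id2* and *Id4*, which encode inhibitors of DNA binding and are BMP target genes, and not for *Id3* or *Atoh8*; *Id1* had no entry in the promoter table. The sites of *Id2* (chr12:25096306-25096335, minus strand) and *Id4* (chr13:48260956-48260985, plus strand) are given with the core in capitals.
Id2: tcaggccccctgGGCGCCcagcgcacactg
Id4: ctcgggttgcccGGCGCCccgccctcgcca
A match is a run of letters only, and binding was not measured.

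The arrays detected 13042 to 14369 probes on the iron-supplemented diet and 13823 and 13900 on the control diet. Median raw signals were 80.2 to 83.1 on the iron-supplemented diet and 69.4 and 72.3 on the control diet, a gap between the diets that normalization removes. Of the 12 hepatocyte markers, 10 were measured and none passed the test, with a mean log2 signal of 12.59 to 12.65 in the iron-fed livers and 12.66 and 12.67 in the controls, although the albumin probe itself lay near the detection floor at 6.74 to 6.89. In whole liver, fewer cells of a type and less RNA per cell cannot be told apart. Iron replicate 1 stood apart from the other iron-fed livers by more than 1 on the log2 scale in 19 of 8657 genes, iron replicate 2 in 0 and iron replicate 3 in 6. Of the 19, 15 were higher in iron replicate 1 and 4 lower. The higher ones included *Dmbt1* (10.92 against 6.66 and 6.56), *Acta2* (10.08 against 8.31 and 7.68) and *Tff2* (8.31 against 6.75 and 6.62). Whether that sample held other tissue was not tested.

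Of 14919 probes tested with limma, 169 were higher and 155 lower on the iron-supplemented diet at an adjusted p under 0.05, which is 2.17% of the probes. Each array was 1 mouse, so the p-values measure the spread between individual mice, and with 3 and 2 arrays that spread is poorly known. With the brightest tested probe taken for each of 8657 genes, 120 genes (1.39%) were higher and 105 (1.21%) lower, and the median difference over all genes was -0.01. Counts of called members in the gene lists below are to be read beside these shares. Without iron replicate 2 the number of probes called fell to 40 and without control replicate 1 to 41, while 463 were called without iron replicate 1. Of the 71 called genes named by rule, 17 passed the test under every alternative in which they were measured, and none changed direction. These were *Cyp2b10*, *Hamp2*, *Id1*, *Cyp4a14*, *Apoa4*, *Id3*, *Apoa5*, *Cyp4a31* and *Bhlhe40* among the genes that rose and *Fam25c*, *Susd4*, *Nnmt*, *Dct*, *Hectd2*, *Slco1a1*, *Alas2* and *Slc11a2* among those that fell. The study's own quantitative RT-PCR did not bear out the fall of *Slc11a2*, so a stable call on these arrays is no proof of a change.

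**Figure D1:**
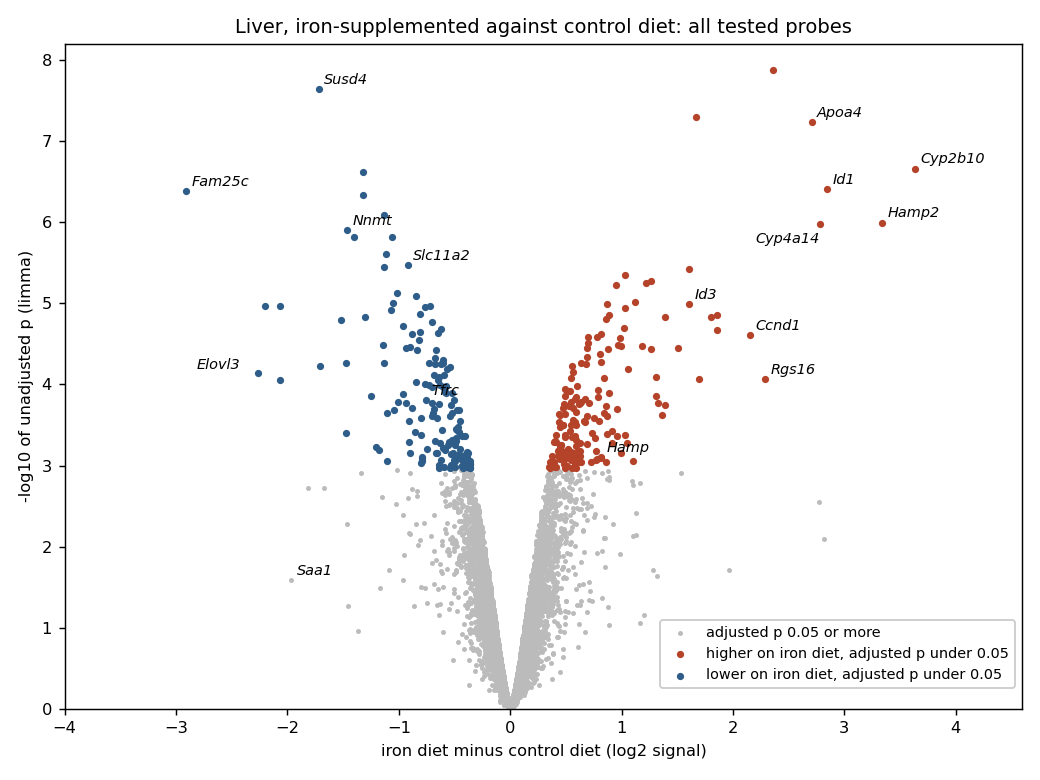
Each point is 1 of 14919 probes, with the difference of the group means (iron diet minus control diet, log2) on the x axis and -log10 of limma's unadjusted p on the y axis; red points are 169 probes higher and blue points 155 probes lower at an adjusted p under 0.05. *Cyp2b10* and *Hamp2* lie farthest right and *Fam25c* farthest left, while *Saa1*, with a difference of -1.97, lies among the probes that did not pass.

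The 2 hepcidin genes rose, and so did 3 of the 5 measured BMP-SMAD target genes, against 1.39% higher over all genes. *Hamp2* had log2 signals of 13.31, 13.73 and 14.21 in the iron-fed livers and 10.26 and 10.55 in the controls. Every iron-fed liver lay above both controls, and *Hamp2* rose 10.1-fold (log2 difference 3.34, standard error 0.23, adjusted p = 0.00132). *Hamp*, the gene of the iron-regulating peptide, read 13.59, 13.58 and 13.39 against 12.43 and 12.97. Its groups did not overlap either, with a rise of 1.76-fold (log2 difference 0.82, standard error 0.15, adjusted p = 0.0442). This call ended without iron replicate 1 (adjusted p = 0.0576), iron replicate 2 (0.169), iron replicate 3 (0.0635) or control replicate 1 (0.164), and held without control replicate 2 (0.0151). The probes of *Hamp* and *Hamp2* measure near-identical transcripts, and cross-hybridization was not tested. By quantitative RT-PCR in more livers of the experiment, the study reported both hepcidin genes as higher on the iron-supplemented diet. Both rises were larger by that method than on the arrays. None of the other 11 measured genes of hepcidin control passed, among them transferrin receptor 2, *Tfr2* (difference -0.03, adjusted p = 0.892), and *Hfe* (0.00, adjusted p = 0.996). The list's median difference was 0.01.

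*Id1* showed the largest difference of the BMP target genes. It read 10.01, 9.54 and 9.35 in the iron-fed livers and 6.76 and 6.81 in the controls, which lie just above the detection floor. The rise was 7.20-fold (log2 difference 2.85, standard error 0.17, adjusted p = 0.000763), while a dimmer second *Id1* probe differed by 0.13 (adjusted p = 0.441). *Id3* read 9.59, 9.14 and 9.21 against 7.54 and 7.88 and rose 3.05-fold (adjusted p = 0.00506). *Id2* read 10.44, 9.30 and 9.42 against 8.11 and 8.26, a difference of 1.53 (standard error 0.31) that did not pass (adjusted p = 0.0526), the first iron-fed liver being far above the other ones. *Id4* differed by 0.31 on its brighter probe (adjusted p = 0.0878) and by 0.85 on its dimmer one (adjusted p = 0.0129). *Atoh8*, a transcription factor gene that BMP signalling induces, was detected in all iron-fed livers and in neither control, at least 1.52-fold higher (adjusted p = 0.00793). The *Atoh8* call ended without iron replicate 2 (adjusted p = 0.0558), control replicate 1 (0.071) or control replicate 2 (0.0507). All 5 measured members of the list had positive differences with a median of 1.53, and 1.18 without iron replicate 1, against 48.4% positive over all genes. *Atoh8* passed the detection filter only through the iron-fed livers, which makes a positive difference likely. The 3 members detected on every array also had positive differences. *Bmp6*, the ligand known to rise with liver iron, and *Smad7*, a feedback inhibitor, were not well above background on any of the 5 arrays.

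**Figure D2:**
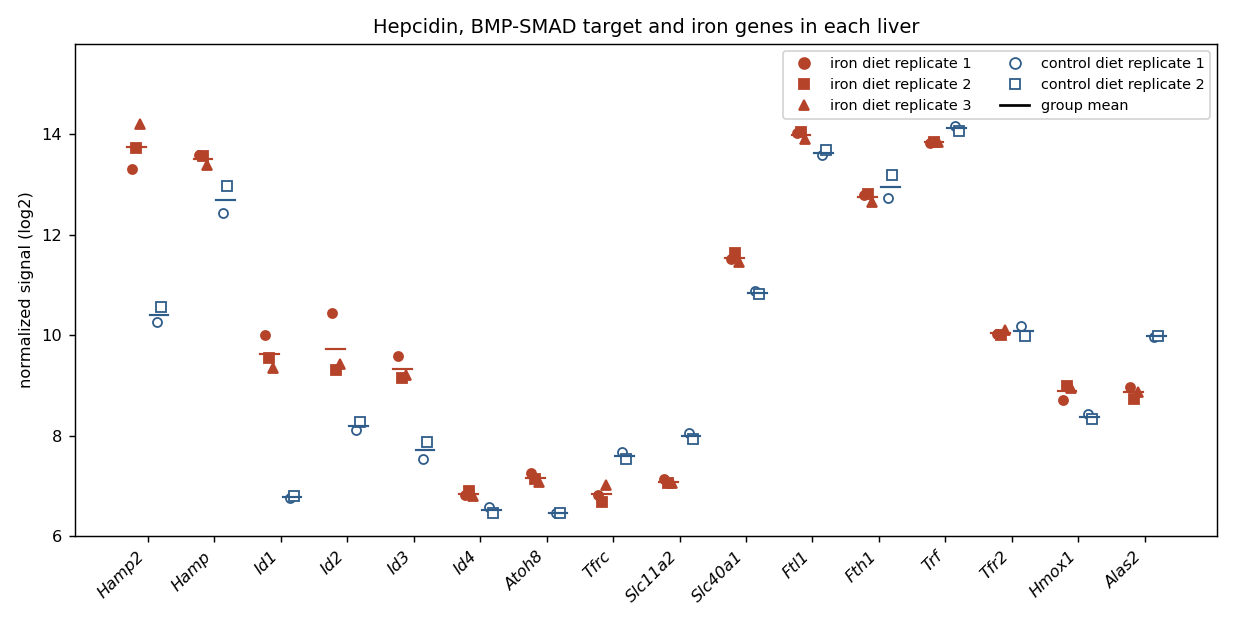
Log2 normalized signal of each liver for the hepcidin genes, the BMP-SMAD target genes and genes of iron and heme handling; filled red symbols are the 3 iron-fed livers, open blue symbols the 2 controls, and lines the group means. *Hamp2*, *Id1* and *Id3* separate widely, whereas *Fth1* and *Tfr2* overlap.

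Among 18 measured genes of iron uptake, storage and export, 2 rose and 2 fell, against 1.39% higher and 1.21% lower over all genes. *Tfrc*, transferrin receptor 1, read 6.83, 6.69 and 7.02 in the iron-fed livers and 7.68 and 7.53 in the controls so that its log2 signal fell by 0.76 (standard error 0.11, adjusted p = 0.0183). *Slc11a2*, the divalent metal transporter DMT1, read 7.13, 7.05 and 7.05 against 8.06 and 7.94 and fell by 0.92 (standard error 0.08, adjusted p = 0.00296), with a second probe that fell by 0.72. *Slc40a1*, ferroportin, rose from 10.87 and 10.81 to 11.52, 11.63 and 11.46, a 1.62-fold rise (adjusted p = 0.00785). None of the iron-fed livers reached the range of the controls in these called genes, a separation that a call makes likely. *Lcn2*, lipocalin 2, which binds bacterial siderophores, rose 2.04-fold (adjusted p = 0.0323). The ferritin chains, which store iron, did not pass, with differences of 0.36 for *Ftl1* (standard error 0.08, adjusted p = 0.0687) and -0.20 for *Fth1* (standard error 0.13, adjusted p = 0.523). Nor did *Trf*, the plasma carrier transferrin, with -0.28 (adjusted p = 0.103), or the ferroxidase gene *Cp*, with 0.64 (adjusted p = 0.302). By quantitative RT-PCR the study reported *Cp* as higher on the iron-supplemented diet. The list's median was 0.06. *Slc11a2* held its call whichever array was left out, whereas *Tfrc* and *Slc40a1* lost it without iron replicate 2 (adjusted p = 0.0808 and 0.0558), control replicate 1 (0.155 and 0.063) and control replicate 2 (0.0589 and 0.0507), and *Lcn2* without the same arrays (0.125, 0.0664 and 0.125).

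In heme handling, 1 of 12 measured genes rose and 1 fell, against 1.39% higher and 1.21% lower over all genes. *Alas2*, the erythroid form of the first enzyme of heme synthesis, read 8.98, 8.73 and 8.87 against 9.97 and 9.99 and fell by 1.12 (standard error 0.09, adjusted p = 0.00228). The globin genes *Hba-a1*, *Hbb-bs* and *Hbb-bt*, which mark red cells in the tissue, had differences of 0.37, 0.30 and 0.32 and did not pass, so that *Alas2* and the globins differed in opposite directions. *Slc48a1*, a heme transporter, rose 1.46-fold (adjusted p = 0.0188), a call that ended without iron replicate 2 (0.0956), control replicate 1 (0.14) or control replicate 2 (0.0889). *Hmox1*, heme oxygenase 1, read 8.70, 9.00 and 8.94 against 8.43 and 8.32 and did not pass (difference 0.50, standard error 0.10, adjusted p = 0.0562). Of 8 genes of mitochondrial iron-sulfur assembly and 8 metallothionein and zinc transporter genes measured, 0 passed limma's test.

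Genes that differ between the sexes had differences in a common direction. Male mouse liver receives growth hormone in pulses and female liver more steadily, and STAT5 and the repressor BCL6 keep male-biased genes high and female-biased genes low in males. All mice here were male. Of 14 measured male-biased genes, 6 fell, 0 rose and 14 had a negative difference, with a median of -1.23. The shares over all genes were 1.21% called lower and 51.6% negative. Of 10 measured female-biased genes, 3 rose, 0 fell and 10 had a positive difference, with a median of 0.53. Over all genes 1.39% were called higher and 48.4% were positive. A gene silent in the controls counts as measured only if iron-fed livers detect it, so the detection filter partly sets this count. The 4 members detected on every array also had positive differences. Both lists were drawn up with earlier results of these data known.

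*Elovl3*, a fatty acid elongase, read 7.72, 7.05 and 6.64 in the iron-fed livers and 9.64 and 9.16 in the controls, and fell by 2.26 (standard error 0.29, adjusted p = 0.0118). *Hsd3b5*, a steroid dehydrogenase, read 10.70, 10.51 and 9.93 against 12.24 and 11.94 and fell by 1.71 (standard error 0.21, adjusted p = 0.0103). *C6*, a complement component, fell by 1.52 (adjusted p = 0.00552), and *Slco1a1*, an organic anion transporter, by 1.13 (adjusted p = 0.00296). *Gstp1*, a glutathione S-transferase, fell by 0.69 (adjusted p = 0.0216) and *Serpina1e*, a protease inhibitor gene, by 0.93 (adjusted p = 0.0188). In these 6 genes no iron-fed liver reached a control. They were picked as called genes, which makes such a separation likely, so it is no further result.

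Further male-biased members, named after their values were seen, had large differences that did not pass. *Cyp4a12a*, an androgen-dependent fatty acid hydroxylase, read 11.14, 10.71 and 9.58 against 12.33 and 12.25 (difference -1.81, adjusted p = 0.065). *Cyp7b1*, an oxysterol hydroxylase, read 10.70, 10.38 and 9.70 against 11.79 and 11.40 (difference -1.34, adjusted p = 0.0526). *Bcl6* read 9.91, 8.35 and 7.01 against 10.42 and 9.15, so that the groups overlapped (difference -1.36, standard error 0.75, adjusted p = 0.435). Iron replicate 3 was the lowest iron-fed liver in 11 of the 14 male-biased genes and replicate 1 the highest in 13. Without iron replicate 3, 8 male-biased genes were called and the median was -0.99. Without iron replicate 2, 2 were called, without control replicate 2, 4, and without control replicate 1, only *Slco1a1* was called, with the difference still negative for all 14.

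Of the female-biased genes, *Cyp4a14*, a fatty acid hydroxylase, read 11.92, 11.75 and 11.84 against 9.43 and 8.68 and rose 6.89-fold (log2 difference 2.78, standard error 0.19, adjusted p = 0.00132). *Abcd2*, a peroxisomal transporter, rose 1.99-fold (adjusted p = 0.0417) and *Tox*, a nuclear factor gene, 1.46-fold (adjusted p = 0.0299). Each of the last 2 passed only without iron replicate 1 among the fits that left out an array, with adjusted p up to 0.213 and 0.13. *Cyp2b9*, a steroid hydroxylase typical of female liver, read 7.65, 9.14 and 10.33 against 6.25 and 6.28, and was detected in all iron-fed livers and neither control. It was at least 5.61-fold higher, but with livers this far apart it did not pass (adjusted p = 0.0788). Iron replicate 3 was the highest iron-fed liver in 7 of the 10 female-biased genes.

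**Figure D3:**
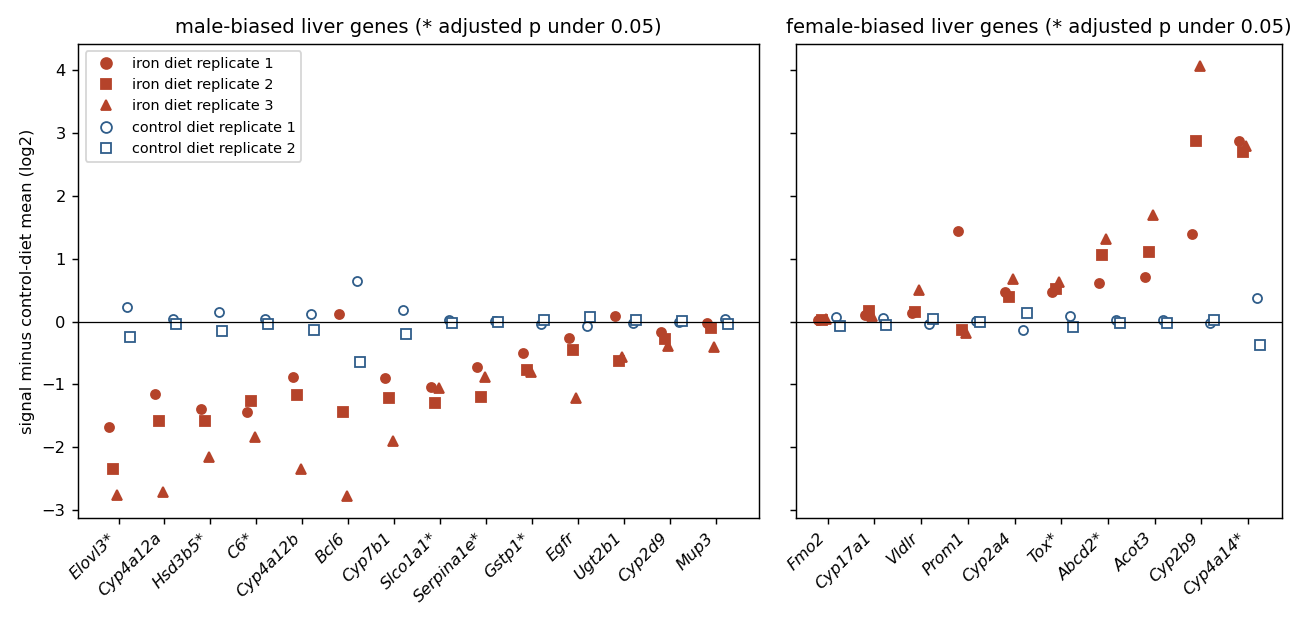
Log2 signal of each liver minus the mean of the control-diet livers for 14 male-biased and 10 female-biased genes, with filled red symbols for the 3 iron-fed livers and open blue symbols for the 2 controls; asterisks mark genes with an adjusted p under 0.05. Most iron-fed livers lie below 0 at left and above 0 at right, with iron replicate 3 often the farthest from 0.

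Genes of growth hormone and cytokine signalling went both ways, with 3 of 17 measured members higher and 3 lower (median 0.06). The shares over all genes were 1.39% higher and 1.21% lower. *Ghr*, the growth hormone receptor, read 11.20, 11.13 and 11.11 against 11.76 and 11.61 and fell by 0.53 (standard error 0.08, adjusted p = 0.019). *Socs2*, a feedback inhibitor that growth hormone induces, fell by 0.79 (adjusted p = 0.0458), whereas *Cish*, from the same family, read 7.35, 7.91 and 9.55 against 6.72 and 7.42 and did not pass (adjusted p = 0.353). *Il6ra*, the interleukin-6 receptor chain, fell by 1.05 (adjusted p = 0.0208) on its brightest probe, and its other probes differed by -0.49, -0.64 and -0.19. *Il1b*, the cytokine interleukin-1 beta, read 7.68, 7.71 and 7.38 against 6.66 and 6.59 and rose 1.95-fold (adjusted p = 0.00793). *Socs3*, which damps STAT3, rose 1.83-fold (adjusted p = 0.0321) and *Stat3* itself 1.34-fold (adjusted p = 0.0431). Of these 6 calls, 0 remained without iron replicate 2 or control replicate 1, where the adjusted p of *Il1b* was 0.0558 and 0.0645, that of *Ghr* 0.0974 and 0.164 and that of *Socs3* 0.0974 and 0.198, and without control replicate 2 only *Il6ra* passed (0.0333).

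Acute phase genes did not rise as a group. Of 23 measured, only *Lcn2* rose and *Saa4*, a constitutive serum amyloid gene, fell by 0.94 (standard error 0.11, adjusted p = 0.00793, and 0.0558 and 0.063 without iron replicate 2 and control replicate 1). The median was -0.02, and 0.10 without control replicate 1. *Saa1* read 8.95, 10.08 and 9.24 in the iron-fed livers against 12.77 and 10.01 in the controls (difference -1.97, adjusted p = 0.227), and *Saa2* read 7.20, 7.96 and 7.52 against 10.31 and 7.73 (difference -1.46, adjusted p = 0.32). For both genes control replicate 1 alone was high and the groups overlapped. By quantitative RT-PCR in more livers of the experiment, the study reported *Saa1* and *Saa2* as lower on the iron-supplemented diet. The chemokine gene *Cxcl1* read 9.16, 8.80 and 8.74 against 7.60 and 6.82 and rose 3.24-fold (adjusted p = 0.013), a call that ended without iron replicate 2 (0.0904). *Rsad2*, an interferon-induced gene, was the only one of 16 interferon and MHC class I genes to pass, 2.00-fold higher (adjusted p = 0.00793), with an adjusted p of 0.0558 without iron replicate 2.

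Markers of other cells were measured beside these genes. *S100a8*, a calcium-binding protein of neutrophils, read 8.23, 7.62 and 7.58 in the iron-fed livers and was detected in neither control, at least 2.39-fold higher (adjusted p = 0.0172, and 0.0796, 0.131 and 0.0797 without iron replicate 2, control replicate 1 and control replicate 2). Its partner *S100a9* had 7.63, 7.18 and 6.94 and was likewise undetected in the controls (at least 1.62-fold, adjusted p = 0.0571). The granule genes *Ngp*, *Mpo* and *Elane* were not well above background on any array. *Ltf* was detected only in iron replicate 1 and *Camp* only in control replicate 1. Of 11 neutrophil markers on the array, 5 were measured. Their mean log2 signal was 7.06 to 7.45 in the iron-fed livers and 6.53 and 6.64 in the controls. *S100a8* and *S100a9* passed the detection filter only through the iron-fed livers, so the filter partly sets this gap. Of these markers *S100a8* and *Lcn2* rose, while *Mmp9* and *Csf3r* differed by -0.04 and -0.02. All 10 measured Kupffer cell and macrophage markers had small positive differences (0.08 to 0.30), against 48.4% positive over all genes, and 0 passed limma's test. Their mean was 7.93 to 8.16 against 7.86 and 7.91, lowest of the iron-fed livers in replicate 1, where *S100a8* was highest. *Clec4g* of the sinusoidal endothelium rose 1.47-fold (adjusted p = 0.0499) and *Reln* of stellate cells fell by 0.68 (adjusted p = 0.00952), the only called members of their lists. Without iron replicate 2 or control replicate 1 neither passed (adjusted p = 0.108 and 0.294 for *Clec4g*, 0.0598 and 0.0747 for *Reln*). *Clec4g* also failed without iron replicate 3 (0.093) and control replicate 2 (0.137) and kept its call in 5 of 14 alternatives. The part of such cells in the differences of *Il1b*, *Cxcl1* and *Lcn2* was not tested.

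Of 28 measured PPAR alpha targets and fatty acid oxidation genes, 5 rose and 1 fell, against 1.39% higher and 1.21% lower over all genes. The list's median was 0.13. The rises were in microsomal and peroxisomal enzymes: the fatty acid hydroxylases *Cyp4a14* (above), *Cyp4a31*, at 9.30, 9.01 and 9.00 against 7.92 and 7.76 (2.40-fold, adjusted p = 0.00378), and *Cyp4a10* (2.51-fold, adjusted p = 0.0189), the bifunctional enzyme *Ehhadh* (1.94-fold, adjusted p = 0.0326) and the thioesterase *Acot4* (1.44-fold, adjusted p = 0.0415). *Angptl4*, an inhibitor of lipoprotein lipase that PPAR alpha also induces, read 10.21, 10.06 and 10.14 against 11.33 and 11.05 and fell by 1.05 (standard error 0.10, adjusted p = 0.00506). The carnitine palmitoyltransferase gene *Cpt1a*, the gate of mitochondrial oxidation, differed by -0.04. The *Cyp4a* genes are close paralogs whose probes may share signal. Without iron replicate 2, *Cyp4a10* (adjusted p = 0.0917), *Ehhadh* (0.0682), *Acot4* (0.082) and *Angptl4* (0.0501) did not pass, and among the fits that left out an array *Ehhadh* and *Acot4* passed only without iron replicate 1. *Cyp4a10* also failed without control replicate 2 (0.0559).

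The apolipoprotein genes *Apoa4* and *Apoa5*, which lie side by side and act on triglyceride-rich lipoproteins, were the 2 that rose among 18 measured apolipoprotein and lipoprotein assembly genes. *Apoa4* read 11.35, 11.80 and 11.51 against 8.84 and 8.84 and rose 6.54-fold (log2 difference 2.71, standard error 0.13, adjusted p = 0.000218). *Apoa5* read 10.71, 10.95 and 10.79 against 8.99 and 9.42 and rose 3.05-fold (adjusted p = 0.00299). The genes *Apoa1* and *Apoc3* differed by -0.08 and 0.36 and did not pass. *Mfsd2a*, a transporter of lysophospholipids, read 10.41, 10.94 and 11.10 against 8.89 and 9.03 and rose 3.62-fold (adjusted p = 0.0054, and 0.0558 without iron replicate 2 or control replicate 1).

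In fatty acid synthesis, 4 of 23 measured genes rose and 2 fell, with 18 positive differences and a median of 0.19. Over all genes 48.4% of differences were positive, 1.39% of genes were called higher and 1.21% lower. *Scd1*, the stearoyl-CoA desaturase, read 14.31, 14.38 and 14.24 against 13.57 and 13.79 and rose 1.55-fold (adjusted p = 0.0188), and *Elovl5*, an elongase of polyunsaturated fatty acids, rose 1.47-fold (adjusted p = 0.0333). The other rises were *Elovl2* (1.32-fold) and *Pnpla3* (at least 1.33-fold), and the falls were *Elovl3*, the male-biased elongase, and *Agpat2*, an acyltransferase of triglyceride synthesis, by 0.54 (adjusted p = 0.0226). *Fasn*, fatty acid synthase, read 11.98, 11.99 and 11.73 against 10.23 and 11.32, so that its difference of 1.13 (standard error 0.27, adjusted p = 0.0909) rested largely on control replicate 1. Without that array 0 members were called and 12 of 23 differences were positive, and without iron replicate 2, 0 and 16. Cholesterol synthesis had 3 of 20 genes higher, *Lss* (1.51-fold, adjusted p = 0.0214), *Hsd17b7* (1.42-fold, 0.0488) and *Sqle* (1.41-fold, 0.0498), with 17 positive differences, and 0 were called without iron replicate 2, control replicate 1 or control replicate 2.

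Of 18 measured genes of bile acid synthesis and transport, 1 rose and 2 fell, against 1.39% higher and 1.21% lower over all genes. There were 9 positive and 9 negative differences. *Cyp7a1*, the rate-limiting enzyme of the synthesis, read 8.74, 8.79 and 9.19 in the iron-fed livers and 10.63 and 10.13 in the controls and fell by 1.47 (standard error 0.18, adjusted p = 0.0102, and 0.0849 and 0.0652 without iron replicate 2 and control replicate 1). *Cyp39a1*, an oxysterol hydroxylase, rose 1.39-fold (adjusted p = 0.0432, passing in 1 of 5 fits that left out an array). Besides these and *Slco1a1*, the other 15 genes did not pass, among them *Cyp8b1* (-0.32) and the bile salt export pump gene *Abcb11* (-0.03).

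*Cyp2b10*, a drug-metabolizing cytochrome P450 and the classical target of the receptor CAR, had the largest difference of all named genes. It read 10.33, 9.52 and 9.99 in the iron-fed livers and was not detected in the controls, where its signals were 6.28 and 6.34. The rise was at least 10.5-fold (adjusted p = 0.000587). Of 18 measured CAR and PXR target genes, 3 rose, against 1.39% higher over all genes. Besides *Cyp2b10* these were *Gstm1*, a glutathione S-transferase (1.62-fold, adjusted p = 0.00952), and *Abcc4*, an efflux pump (1.38-fold, adjusted p = 0.0415). The PXR target *Cyp3a11* differed by -0.14 and did not pass. Across cytochrome P450 families 1 to 3, 3 of 22 genes rose, with *Cyp2c54* at 1.75-fold (adjusted p = 0.00888) and *Cyp3a13* at 1.63-fold (adjusted p = 0.0188), and *Cyp1a2* fell by 0.41 (adjusted p = 0.0326). Without iron replicate 2 these had an adjusted p of 0.0501, 0.092 and 0.121. *Cyp2c54* also failed without control replicate 1 (0.0733), *Cyp3a13* without iron replicate 3 (0.0512) and control replicate 2 (0.0764), and *Cyp1a2* passed only without iron replicate 1 among the fits that left out an array.

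Glutathione genes had 3 of 26 members higher, *Gstm1*, *Gstm6* (1.73-fold, adjusted p = 0.0174) and *Gstt2* (1.54-fold, adjusted p = 0.0431), and *Gstp1* lower. The shares over all genes were 1.39% higher and 1.21% lower. Of 21 measured NRF2 targets, which respond to oxidative stress, 18 had positive differences (median 0.30), against 48.4% positive over all genes. Called as higher were 3, *Gstm1*, *Abcc4* and *Srxn1*, a sulfiredoxin (1.51-fold, adjusted p = 0.0455). *Nqo1* (0.30, adjusted p = 0.12) and *Gclc* (0.59, adjusted p = 0.207) did not pass, the latter reading 7.62 in iron replicate 1 and 6.85 in iron replicate 3. None of 11 other antioxidant enzymes passed. Without iron replicate 2 or control replicate 1, 0 of the glutathione and 0 of the NRF2 genes were called. Of the CAR and PXR targets only *Cyp2b10* was then called. The 2 dimmer probes of *Gstm6* differed by -0.13 and -0.11.

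Several of the largest changes lay outside these groups. *Fam25c*, whose function is not established, read 8.41, 8.87 and 8.19 against 11.46 and 11.34 and fell by 2.91 (standard error 0.18, adjusted p = 0.000763). *Susd4*, a complement inhibitor gene, read 7.40, 7.36 and 7.28 against 9.07 and 9.06 and fell by 1.72 (standard error 0.07, adjusted p = 0.000169). *Nnmt*, nicotinamide N-methyltransferase, fell by 1.47 (adjusted p = 0.00142) and *Dct*, dopachrome tautomerase, by 1.41 (adjusted p = 0.00153). *Hectd2*, a ubiquitin ligase gene, fell by 1.33 on its brightest probe (adjusted p = 0.000587) and differed by -0.08 and -0.12 on others near the floor, and *4732465J04Rik* fell by 1.30 (adjusted p = 0.0054, and 0.0558 without iron replicate 2). These genes had non-overlapping groups by the rule that named them.

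*Ccnd1*, cyclin D1, which drives entry into the cell cycle, read 10.35, 11.11 and 10.57 against 8.25 and 8.80 and rose 4.44-fold (adjusted p = 0.007, and 0.0563 without control replicate 1). It was the only one of 11 measured cell cycle genes to pass, and the replication genes *Mcm2*, *Mcm6* and *Pcna* differed by 0.05, 0.17 and 0.16. For *Foxq1*, the study reported the array change in *Hfe* knock-out livers as a false positive by quantitative RT-PCR. The diet call of *Foxq1* ended in limma's fit of 10 arrays (adjusted p = 0.11). *Foxq1*, a forkhead factor gene, rose 3.62-fold (adjusted p = 0.00661, and 0.0558 and 0.0645 without iron replicate 2 and control replicate 1). *Rgs16*, a regulator of G protein signalling, read 8.88, 9.88 and 9.83 against 6.98 and 7.50 and rose 4.88-fold (adjusted p = 0.013, and 0.0908 and 0.109 without the same arrays). *Bhlhe40*, a transcriptional repressor of the circadian clock, rose 2.34-fold (adjusted p = 0.00378), and *Nr1d2*, a nuclear receptor of the clock, fell by 0.53 (adjusted p = 0.0486, passing in 0 of 5 fits that left out an array). The clock output gene *Dbp*, named after its values were seen, read 8.09, 11.05 and 10.68 against 6.71 and 7.53 (adjusted p = 0.131). The sources used here do not state the hours of killing, and their part in the clock genes was not tested.

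The lists of stress genes differed from one another. The median difference was -0.22 for cytosolic heat shock genes, with 9 of 15 negative against 51.6% over all genes. For ER chaperone and unfolded protein response genes it was -0.01. The quartiles over all genes were -0.10 and 0.09. For 11 measured immediate early genes the median was 0.45, with 10 positive against 48.4% over all genes. Replicate 1 was the highest iron-fed liver in 9 of these 11. Of 15 cytosolic heat shock genes *Hspb8*, a small heat shock protein, rose 1.47-fold (adjusted p = 0.0103), whereas *Hsph1* and the co-chaperone gene *Chordc1* fell by 1.07 (adjusted p = 0.00508) and 0.61 (adjusted p = 0.015), these 3 with adjusted p of 0.0558, 0.0501 and 0.0831 without iron replicate 2. *Hspb8* and *Chordc1* also failed without control replicate 1 (0.0922 and 0.0652) and control replicate 2 (0.0627 and 0.0835). Of 21 ER chaperone and unfolded protein response genes *Trib3*, a pseudokinase, rose 2.04-fold (adjusted p = 0.00506, and 0.0505 without control replicate 1) and *Herpud1* fell by 0.79 (adjusted p = 0.0439, and passing only without iron replicate 1 among the fits that left out an array), while *Hspa5* (BiP) read 7.93, 7.27 and 7.10 against 7.19 and 7.51 (adjusted p = 0.899). *Ppp1r3b*, a glycogen-targeting phosphatase subunit, fell by 0.97 (adjusted p = 0.00627, and 0.0558 and 0.0505 without iron replicate 2 and control replicate 1). *Dusp1*, an immediate early phosphatase, rose 2.15-fold (adjusted p = 0.0457, passing only without iron replicate 1 among those fits). *Cela1*, an elastase gene, fell by 0.65 (adjusted p = 0.00687, and 0.0558 and 0.069 without iron replicate 2 and control replicate 1). None of 15 extracellular matrix genes passed, with *Col1a1* detected in 2 iron-fed livers and no control, and 0 of 9 MHC class II genes and 0 of 9 retinoid genes passed limma's test.

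**Figure D4:**
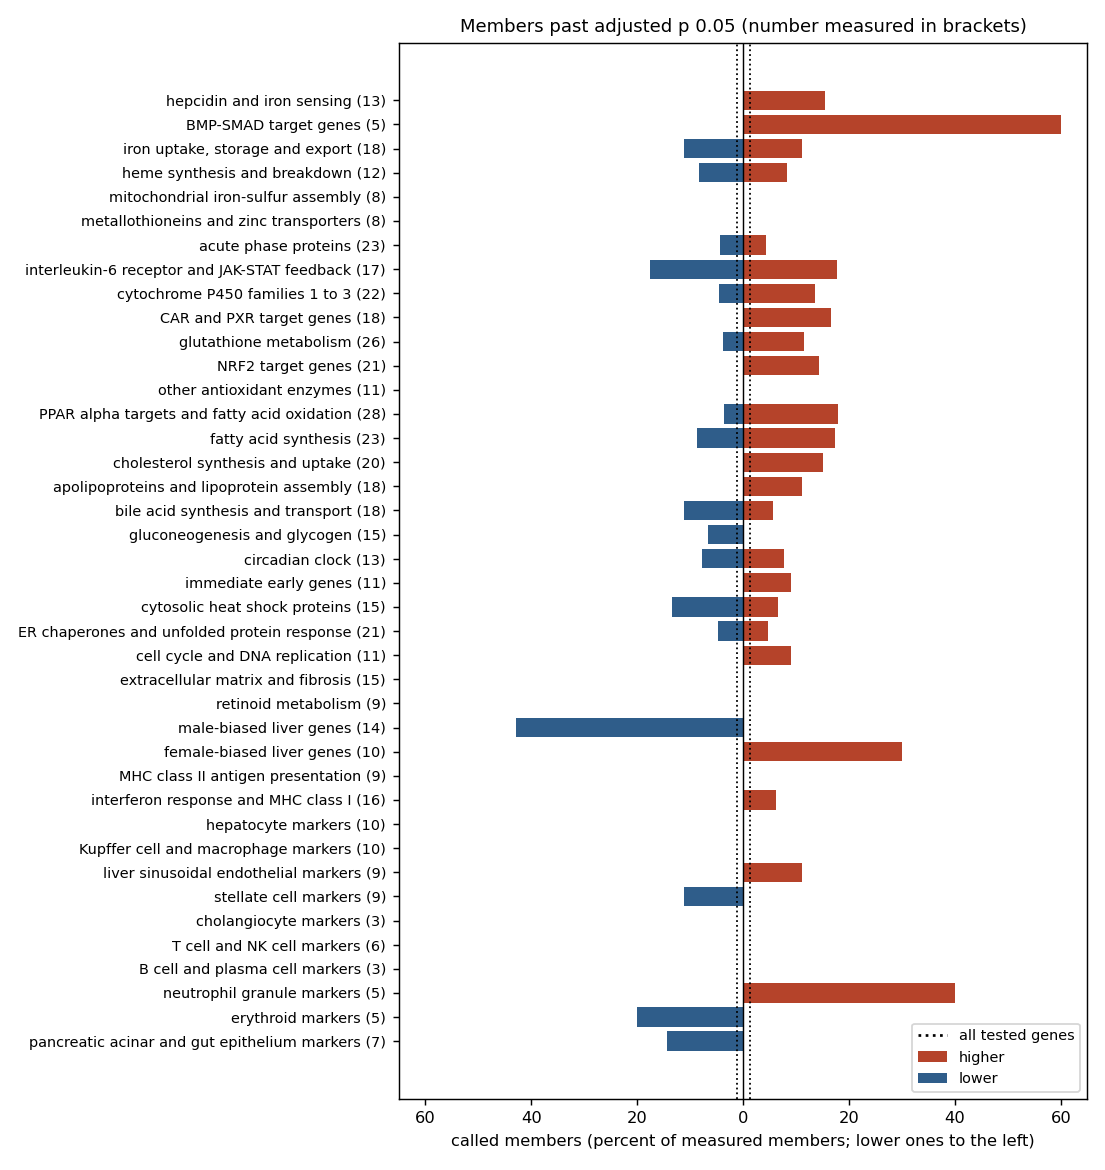
Share of the measured members of each of 40 gene lists with an adjusted p under 0.05, higher on the iron-supplemented diet to the right (red) and lower to the left (blue), with the number of measured members in brackets; dotted lines are the shares over all 8657 genes, 1.39% higher and 1.21% lower. The BMP-SMAD targets reach farthest right with 3 of 5 and the male-biased genes farthest left with 6 of 14, and lists of few members move in large steps.

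The diet differences were set against those of *Hfe* knock-out livers in 1 fit of 10 arrays. The mice of the 2 experiments differed in age, and each had its own controls. The study also reported a higher hepatic iron concentration in the iron-fed than in the knock-out mice. The standard diets of the 2 experiments held unlike amounts of iron. The gaps below are therefore not between mice of equal iron load. By the labels, in which age rises from sample to sample, the knock-out mice were also younger than their wild-type controls. The study's methods instead give about 10 weeks for both groups. If the labels hold, age and genotype cannot be told apart in the *Hfe* difference. The *Hfe* probe itself differed by -0.05 between knock-out and wild-type livers, at a level near the detection floor, and no source here says whether it lies in the deleted part. Of 8036 genes measured in both, the 2 differences were unequal for 97 (1.21%), and of 81 named genes for 29, of which 15 had the higher difference on the iron-supplemented diet. Of the 81 named genes, 68 were called in the diet comparison, and so were all 29. The gap contains the diet difference by which most were chosen, so their share cannot be set against the 1.21%. In 18 of the 29 the differences had opposite signs, but only 1 of the 29, *Apoa4*, passed the test in knock-out mice. *Id1* was at 6.79 ± 0.04 (SD, n = 3) in the knock-out and 6.77 ± 0.20 (SD, n = 2) in the wild-type livers, so that its diet difference exceeded the *Hfe* difference by 2.83 (standard error 0.22, adjusted p = 0.00117). *Hamp2* was at 10.02 ± 0.66 (SD, n = 3) and 9.91 ± 0.57 (SD, n = 2), with an excess of 3.23 (standard error 0.51, adjusted p = 0.0199). For *Hamp* the excess of 1.31 (standard error 0.32) did not pass (adjusted p = 0.0876). *Apoa4* was 1.24 higher in knock-out livers and 2.71 higher on the diet (adjusted p of the gap = 0.0112). *Angptl4* was 1.21 higher in knock-out livers, where it fell on the diet (gap -2.26, standard error 0.29, adjusted p = 0.0093). The differences of *Tfrc* (-0.98 in knock-out and -0.76 on the diet) and *Slc40a1* (0.42 and 0.70) did not differ at the threshold, with gaps of 0.22 and 0.28, each with an adjusted p of 0.582. Without control replicate 1 of the diet experiment, 4 probes in place of 137 showed unequal differences. *Id1* (adjusted p = 0.0189) and *Fam25c* (0.0333) passed under every alternative.

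**Figure D5:**
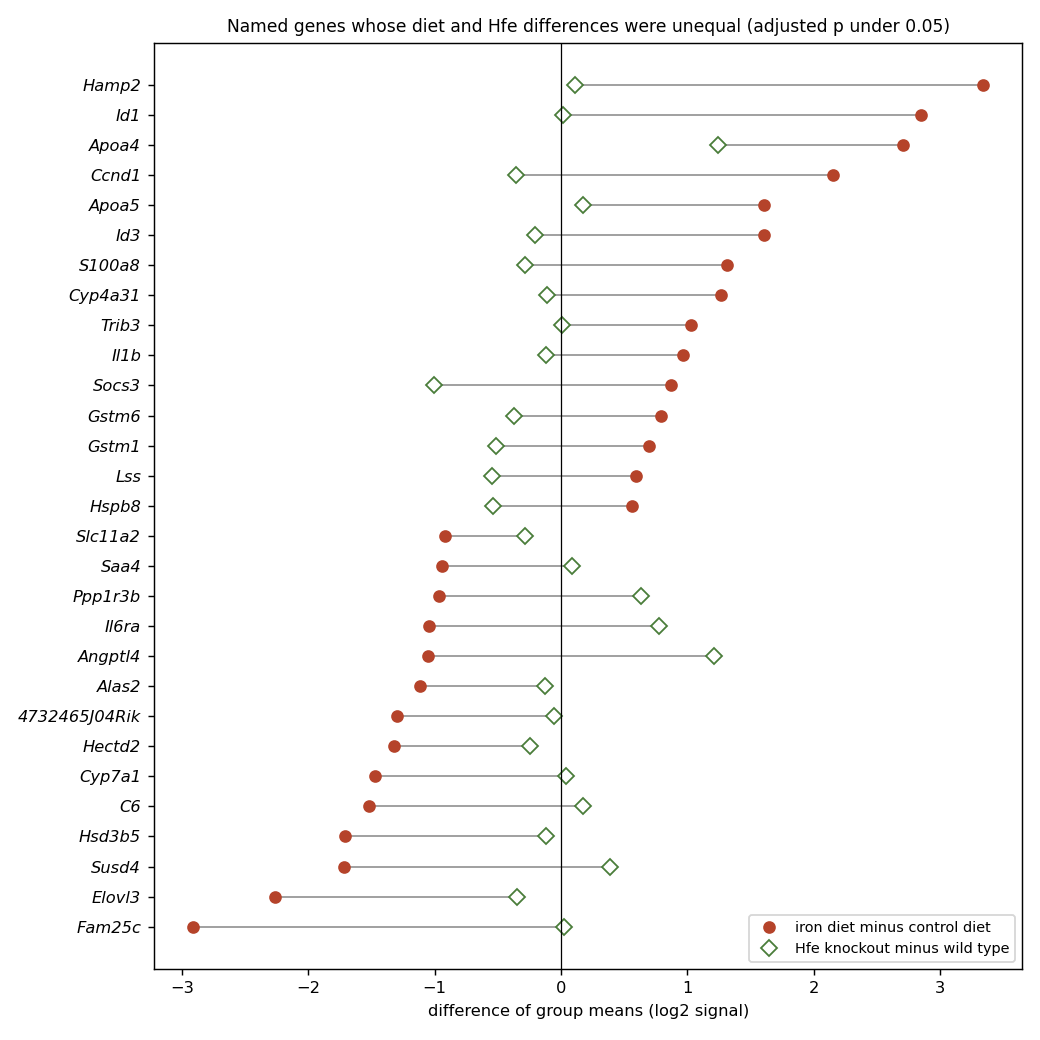
For 29 named genes with unequal differences (adjusted p under 0.05), filled circles give the difference of group means on the iron-supplemented diet against the control diet and open diamonds that of *Hfe* knock-out against wild type, both in log2 signal. Most diamonds lie near 0, while *Apoa4* and *Angptl4* have diamonds near 1.2.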

How the data were processed

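RNA of individual livers was hybridised to Illumina Sentrix Mouse-6 BeadChips. The authors deposited linear bead signal intensity values and a detection p-value for each probe, without background correction or normalization, and a matrix of quantile-normalized log2 values made in Chipster, used here as an alternative only. The signals were quantile-normalized over the 10 liver arrays of the series, then log2-transformed, and 9 signal columns of duodenum were not used. Of 46643 rows (46632 probes, 11 of them duplicated and averaged), 29976 probes had 1 gene symbol in the platform annotation, 10 several and 16646 none. Of those with a symbol, 29933 matched RefSeq, and 11 symbols were updated.

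Testing covered every probe that reached a detection p under 0.05 on 2 or more of the 5 diet arrays. A gene silent on 1 diet could thus be tested only through the arrays of the other diet. These were tested with limma 3.58.1 (lmFit and eBayes, R 4.3.3), with Benjamini-Hochberg adjustment over all 14919 probes and a threshold of 0.05. The diet and *Hfe* differences were compared in 1 fit of 10 arrays over 13382 probes detected in both experiments. A gene was represented by the tested probe with the highest mean. Where a group was undetected on every array, "at least N-fold" sets the other group's mean against the higher of the lowest detected signal and the probe's own signal on each array of that group. Precision is limited by the number of arrays. Alternatives were normalization over 5 arrays, median scaling, the authors' values, normexp with an offset of 50, other detection filters, a fit of 10 arrays, trended robust eBayes, a replicate block and leaving out each array.

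Named genes were, among genes past the threshold whose groups did not overlap and that were detected on every array of the higher group, the 10 with the largest rises and the 10 with the largest falls, up to 4 called members of each of 40 gene lists, and a set of iron and liver genes taken whatever their result. The members and lists were chosen with earlier results of these data known. Other genes were named after their values were seen, among them *Serpina1e*, *Cyp4a12a*, *Cyp7b1*, *Bcl6*, *Cyp2b9*, *Ehhadh*, *Acot4*, *Socs2*, *Stat3*, *Cish*, *S100a9*, *Elovl2*, *Pnpla3* and *Dbp*. Promoter sequences are those of RefSeq on GRCm38.p6.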

Additional observations from a re-analysis of the deposited data

Results flagged for a closer look

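The genes below had diet and *Hfe* differences that were unequal in limma's fit of 10 arrays (adjusted p under 0.05), and each value is the diet difference minus the *Hfe* difference in log2 signal. Among genes of iron, heme and BMP signalling the gap was 2.83 for *Id1*, 1.81 for *Id3*, 3.23 for *Hamp2*, -0.99 for *Alas2* and -0.63 for *Slc11a2*. Of 14 alternatives, the call held in 14 for *Id1*, 13 for *Id3*, 11 for *Hamp2*, 12 for *Alas2* and 3 for *Slc11a2*. The study reported the diet change of *Slc11a2* on the arrays as a false positive by quantitative RT-PCR.

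Among lipid, bile acid and steroid genes the gap was 1.46 for *Apoa4*, 1.44 for *Apoa5*, 1.37 for *Cyp4a31*, 1.14 for *Lss*, -2.26 for *Angptl4*, -1.91 for *Elovl3*, -1.59 for *Hsd3b5* and -1.52 for *Cyp7a1*. These calls held in 13 alternatives for *Apoa4*, *Cyp4a31* and *Angptl4*, 9 for *Apoa5*, 7 for *Elovl3*, 6 for *Cyp7a1* and 5 for *Lss* and *Hsd3b5*. Among genes of cytokine signalling, acute phase and complement it was 1.09 for *Il1b*, 1.88 for *Socs3*, 1.60 for *S100a8*, -1.82 for *Il6ra*, -1.02 for *Saa4*, -1.69 for *C6* and -2.11 for *Susd4*. Here the call held in 13 for *S100a8*, *Il6ra* and *Susd4*, 11 for *Saa4*, 10 for *C6*, 8 for *Il1b* and 6 for *Socs3*.

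For the glutathione S-transferases it was 1.21 for *Gstm1* and 1.16 for *Gstm6*. The stress genes *Hspb8* and *Trib3* had gaps of 1.10 and 1.02, and *Ccnd1* had 2.50. The remaining gaps were -2.93 for *Fam25c*, -1.60 for *Ppp1r3b*, -1.24 for *4732465J04Rik* and -1.08 for *Hectd2*. Of this last set the call held in 14 for *Fam25c*, 13 for *Gstm1*, *Ccnd1*, *Ppp1r3b* and *4732465J04Rik*, 9 for *Gstm6*, 8 for *Hspb8* and *Trib3* and 4 for *Hectd2*. Age differed between the 2 experiments. By the labels it also differed between knock-out and wild-type mice, though the study's methods give 1 approximate age for both. If the labels hold, age cannot be told apart from genotype in the *Hfe* difference.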

How the results depend on the processing

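The diet comparison called 324 probes. Median scaling called 81, and leaving out 1 array gave 40 (without iron replicate 2) to 463 (without iron replicate 1). The other settings gave 247 to 484. With 1 control left, the lone sample was assumed to vary like the other group. Of the 71 called named genes, 35 passed under median scaling, 20 without iron replicate 2 and 24 without control replicate 1, and none changed direction. The replicate numbers did not pair the arrays (correlations of same-numbered deviations 0.02 and 0.03). With the number as a block 431 probes were called. Unequal diet and *Hfe* differences were called for 137 probes, for 34 under median scaling, for 96 with the replicate block and for 4 to 196 with 1 array left out. The cause of these changes was not tested. Probes near the detection floor understate differences.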
